A study of Homo sapiens with 32 samples.

Results

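The comparison was of THP-1 cells given LPS for 24 h with THP-1 cells given PBS, the control, over every probe of a whole-genome expression array. The members were chosen by title, as the 8 arrays of LPS alone and the 8 arrays of PBS, which are 16 of the 32 arrays of the series. THP-1 is a monocytic line grown from a human leukaemia, so all groups share 1 genetic background and the arrays hold no spread between donors. The cells were starved overnight in medium with very little serum and then received either LPS at 100 ng/ml or PBS. The other 16 arrays, of TGFβ1 with or without LPS, were not compared here. They entered the estimate of the spread between arrays, the filter on dim probes and the choice of each gene's brightest probe. They also entered the principal components described below. Total RNA was amplified, labelled with biotin and hybridised to 1-colour Illumina bead arrays.

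LPS is a component of the outer membrane of Gram-negative bacteria. It is bound by CD14 and sensed by the receptor TLR4 with its partner MD-2. The receptor signals through the adaptor MyD88, which leads to NF-kB and MAP kinases, and through the adaptor TRIF, which leads to IRF3 and to type I interferon. Secreted cytokines and interferon act back on the same cells, so a sample taken after a day holds early and late responses together. The inflammatory cytokines and chemokines are the best known part of that response. The functions described here lie mostly outside them.

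The 4 chips each held 2 arrays of each treatment. LPS and PBS lay at different fixed positions on every chip, so the position and the treatment cannot be told apart. The number of probes above background was 12035 to 13072 over the 16 arrays. Arrays of both groups stood apart from their own replicates. Residuals from the group means were summarised by principal components, the first of which took up 42.3% of the variance. On it, PBS arrays 1, 3 and 4 and LPS arrays 1, 3, 4 and 7 lay on one side and the other 9 arrays on the other. All arrays of chip 2 lay on the first side and all arrays of chip 3 on the second, and values by chip are therefore given with the results. Chips 1 and 4 held LPS arrays of both sides, so the values of these chips average over the split. PBS array 8 had the lowest mean intensity of the 16, 606 against 698 to 805 in the others. Nothing in the labels says whether replicate arrays are of separate cultures. The spread behind each p-value is that between arrays and may be technical.

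LPS was followed by changes in a large share of the measured transcriptome, in both directions. Of 13386 genes tested, each by its brightest probe, 2917 rose (21.8%) and 3032 fell (22.7%) at an adjusted p under 0.05 (limma's moderated test over all probes, Benjamini-Hochberg adjustment, 2-sided). Changes of at least 2-fold were more often rises, with 729 rises (5.45%) against 364 falls (2.72%). The 8 LPS values and the 8 PBS values did not overlap for 2737 genes (20.4%). The median log2 change over all genes was 0.04. The balance of rises and falls depended on the scaling of the arrays. Of the probes called, 49.9% were higher as the values were deposited, 40.5% after scaling to a common median and 39.4% after quantile normalization. All log2 changes below are differences of log2(intensity + 50), LPS minus PBS, given with the SE of the fit. Intensities are the lowest, median and highest of the 8 arrays of a group, PBS before LPS, and the groups did not overlap unless stated. The offset makes the change of a dim gene look smaller than it was.

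**Figure D1:**
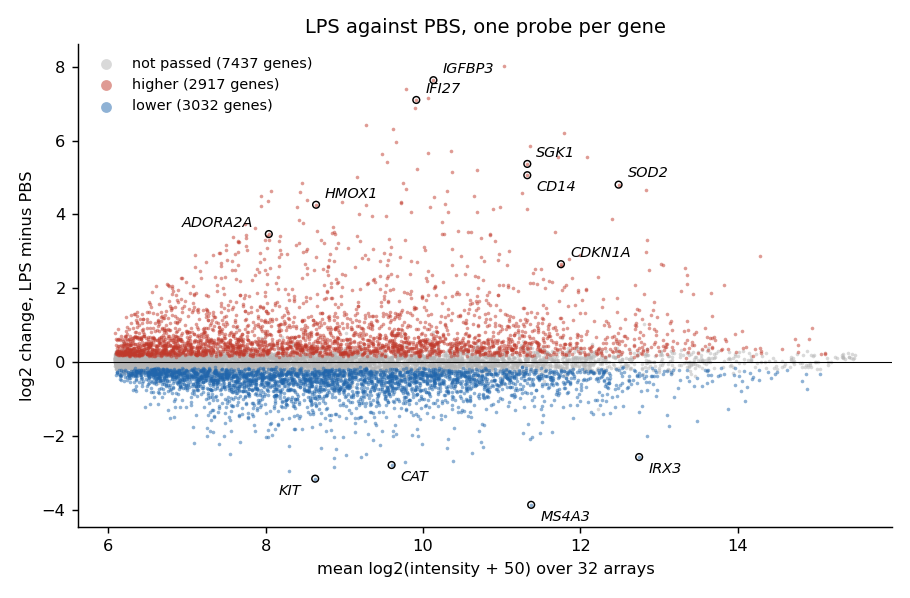
Log2 change with LPS (vertical axis) against the mean log2(intensity + 50) over all 32 arrays (horizontal axis), with 1 point per gene for 13386 genes. Red points are the 2917 genes that rose, blue points the 3032 that fell and grey points those that did not pass the test. The rises reached further from 0 than the falls, from 7.64 for IGFBP3 to -3.87 for MS4A3 among the genes labelled.

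The cells kept the markers of a monocyte, and most of these were higher with LPS. Of the 15 monocyte defining markers, of which none was below background on all 16 arrays, 13 rose and 2 fell. CD14, the LPS co-receptor, measured 149, 341 and 437 in intensity on the lowest, median and highest PBS array and 8808, 11389 and 14418 on the LPS arrays. No LPS array came near the PBS range, and the log2 change was 5.06 ± 0.19 (adjusted p = 5.78e-21). FCER1G, a signalling chain of Fc receptors, rose by 1.88 ± 0.23, and CSF1R, the receptor for the macrophage growth factor M-CSF, by 1.70 ± 0.12. LYZ, which encodes lysozyme, went the other way, with a log2 change of -1.23 ± 0.17, and so did the myeloid factor CEBPA (-0.28 ± 0.06). TLR4 itself did not pass the test (0.59 ± 0.31, adjusted p = 0.13), but passed with the chip as a block.

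Markers of other cell types were mostly dim. Of 33 measured, 17 were bright enough to be tested, 5 rose and 2 fell, and 6 of those tested were below background on all 16 arrays. The summed intensity of the list was 2596 to 3879 with PBS and 3655 to 4435 with LPS. The monocyte defining list summed to 42128 to 62934 with PBS and 99626 to 133518 with LPS. NKG7, a granule membrane protein of cytotoxic lymphocytes, was the only one of the list to rise by at least 2-fold (1.16 ± 0.13). Whether other cells contributed was not tested. In a bulk RNA sample, fewer cells of a type and less RNA per cell cannot be told apart.

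Surface molecules with which macrophages present antigen and receive signals rose as a group. Of 40 tested, 31 rose and 3 fell, where 21.8% and 22.7% of all genes did, with a median of 0.93 that lay between 0.89 and 1.17 within the 4 chips. CD80, which gives T cells a costimulatory signal, did not exceed background on any of the 8 PBS arrays. With LPS it was higher by at least 16.6-fold. For such genes the fold is a bound, set by the dimmest signal above background on each PBS array. CD83, a marker of mature dendritic cells, measured 201, 238 and 420.1 with PBS and 4739, 5555 and 7113 with LPS, and no values overlapped (4.19 ± 0.15). CCR2, which brings monocytes out of the bone marrow, and the granulocyte growth factor receptor CSF3R were among the falls, with log2 changes of -1.17 ± 0.13 and -1.35 ± 0.12.

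Outside the cytokines, the largest rises came from interferon-induced genes, described below, and from genes of quite different functions. IGFBP3, a carrier of insulin-like growth factors, was above background on none of the PBS arrays (9.30, 17.8 and 44.5) and measured 13468, 14716 and 15471 with LPS, at least 157-fold higher. Both of its probes rose. IL4I1, a secreted enzyme that oxidises aromatic amino acids, rose by 5.97 ± 0.13 on the log2 scale. SGK1, a kinase related to AKT, measured 179, 228 and 292 with PBS and 9196, 11067 and 14697 with LPS (5.37 ± 0.10, adjusted p = 3.11e-29), with changes of 5.13 to 5.55 within the chips. RGL1, an exchange factor for the small GTPase Ral, rose by 5.63 ± 0.18. Proteins that cut or protect the matrix were also among them. MMP9, a gelatinase, rose by 5.65 ± 0.38 and ADAMDEC1, a metalloprotease of gut and tonsil macrophages, by 5.22 ± 0.40. SERPINE2, an inhibitor of thrombin and urokinase, measured 213, 263 and 287 with PBS and 5555, 11916 and 21514 with LPS (5.19 ± 0.28).

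The largest falls held genes of immature myeloid cells, metabolic enzymes and developmental regulators. IRX3, a homeobox factor, measured 11908, 17569 and 20426 with PBS and 1401, 3366 and 6059.9 with LPS, a log2 change of -2.57 ± 0.27, and its relative IRX5 also fell (-1.46 ± 0.08). FBP1, an enzyme of gluconeogenesis, measured 741, 911 and 1025 and 61.4, 117 and 176, again with no overlap (-2.60 ± 0.14). CACNA2D3, an accessory subunit of voltage-gated calcium channels, measured 1178, 1361 and 1540.2 with PBS and 182, 196 and 234 with LPS (-2.50 ± 0.08). NKD2, an inhibitor of Wnt signalling, the calcium sensor NCALD and BIK, a cell death protein of the BCL2 family, fell by 2.57, 2.51 and 2.35 on the log2 scale. For NCALD, 2 of its 3 probes fell.

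**Figure D2:**
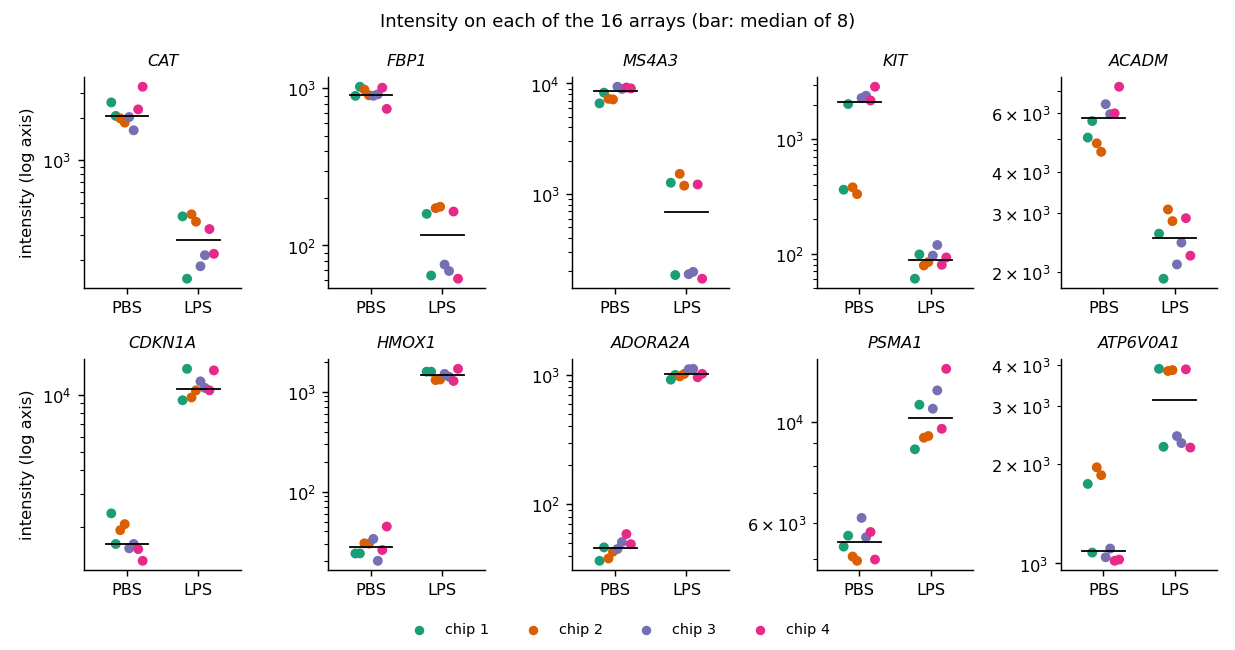
Intensity on a log axis for 10 genes on each PBS and LPS array, coloured by chip, with a bar at the median of 8 arrays. In every panel the LPS values lie outside the PBS range. Arrays of 1 group split for MS4A3 and FBP1 with LPS (171, 693 and 1522 and 61.4, 117 and 176 as lowest, median and highest). They also split for KIT with PBS (331, 2107 and 2878) and for ATP6V0A1 in both groups (1019, 1094 and 1956 with PBS, 2244, 3131 and 3888 with LPS). The LPS arrays that were higher for MS4A3 were also higher for CAT and ACADM, and lower for CDKN1A and PSMA1.

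Genes of immature myeloid cells and of primary granules fell together. Of 34 genes tested, 21 fell and 2 rose, with a median of -0.50 (-0.61 to -0.39 within the chips) beside 0.04 over all genes. MS4A3, a membrane protein of granulocyte and monocyte progenitors, measured 6612, 8599 and 9348 with PBS and 171, 693 and 1522 with LPS. KIT, the receptor for stem cell factor, measured 331, 2107 and 2878 and 60.2, 88.3 and 119. Neither overlapped, and the log2 changes were -3.87 ± 0.37 and -3.16 ± 0.44, from -5.24 to -2.38 and from -4.23 to -1.62 within the chips. Among its transcription factors, GFI1, a repressor needed by granulocyte progenitors, fell by 1.92 and MYB, which sustains proliferation of progenitors, by 1.44.

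The receptor FLT3 fell from 390.2, 663 and 754 to 118, 124 and 131 in lowest, median and highest intensity (-1.85 ± 0.12). Primary granule proteins followed. PRTN3, a serine protease, fell by 2.0 ± 0.17 with no overlap, and MPO, the myeloperoxidase of the same granules, measured 131, 147 and 171 with PBS and was above background on only 1 of 8 LPS arrays (-1.29 ± 0.07). SERPINB10 and CEACAM6, both of early myeloid cells, fell by 2.96 and 2.86. The 2 exceptions were ANPEP, an aminopeptidase that mature monocytes also carry (1.41 ± 0.07), and PLAC8 (0.67 ± 0.20), whose rise did not pass after quantile normalization. The calgranulins, calcium-binding proteins abundant in mature monocytes and neutrophils, rose, as S100A8 changed by 1.84 ± 0.28, S100A9 by 1.93 ± 0.30 and S100A12 by 2.56 ± 0.43.

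DNA replication genes were mostly lower with LPS. Of 47 tested, 37 fell and 0 rose (78.7% and 0%, beside 22.7% and 21.8% of all genes), and the median change was -0.61. The changes were modest, with 4 falls of at least 2-fold. The helicase subunit MCM4 measured 5076, 6889 and 8075 with PBS and 2232, 3038 and 4158 with LPS, with no overlap (-1.09 ± 0.13, adjusted p = 7.35e-09). RFC5, part of the loader that places the sliding clamp on DNA, changed by -1.08 ± 0.14 in its brighter probe, and its other probe did not pass. The clamp PCNA fell by 0.98, in 1 of its 3 probes, and GINS2, a part of the replicative helicase, by 1.06. The size of the shift depended on the chip, since the median of the list was -0.12 on chip 2 and -0.91 on chip 3. The part of the differences between arrays in that spread was not tested.

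Mitosis genes fell in a like manner, with 43 falls and 1 rise among 56 and a median of -0.52 (-0.28 on chip 2, -0.68 on chip 4). The falls made up 76.8% of the list, beside 22.7% of all genes. KIF15, a spindle motor, measured 655, 1171 and 1598 and 357, 545 and 729.9, with some overlap (-0.93 ± 0.14), and SMC2, a condensin subunit, 592, 770.5 and 1289.7 and 330.5, 419 and 502 (-0.89 ± 0.13). MKI67, which encodes the proliferation marker Ki-67, fell by 0.29 only, and its groups overlapped. The exception was CDC25B, a phosphatase that activates cyclin-dependent kinases (0.33 ± 0.09), which did not pass without chip 3.

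Regulators of the step from G1 to S phase changed in both directions. Of 35 tested, 12 rose and 13 fell (34.3% and 37.1%, beside 21.8% and 22.7% of all genes). CDKN1A, the CDK inhibitor p21, measured 1329, 1631 and 2365 with PBS and 9349, 10705 and 13696 with LPS (2.65 ± 0.09, 2.31 to 3.02 within the chips). GADD45B, a stress protein that slows the cycle, rose by 1.5 ± 0.19, and so did CCND1, the cyclin D1 that drives it (2.59 ± 0.23). MYC fell from 883, 1129 and 1709 to 467, 682 and 798 with no overlap (-0.77 ± 0.12). CDKN1B, the CDK inhibitor p27, fell by 0.52, and its target, the kinase CDK2, fell by 0.48 in 1 of 2 probes.

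**Figure D3:**
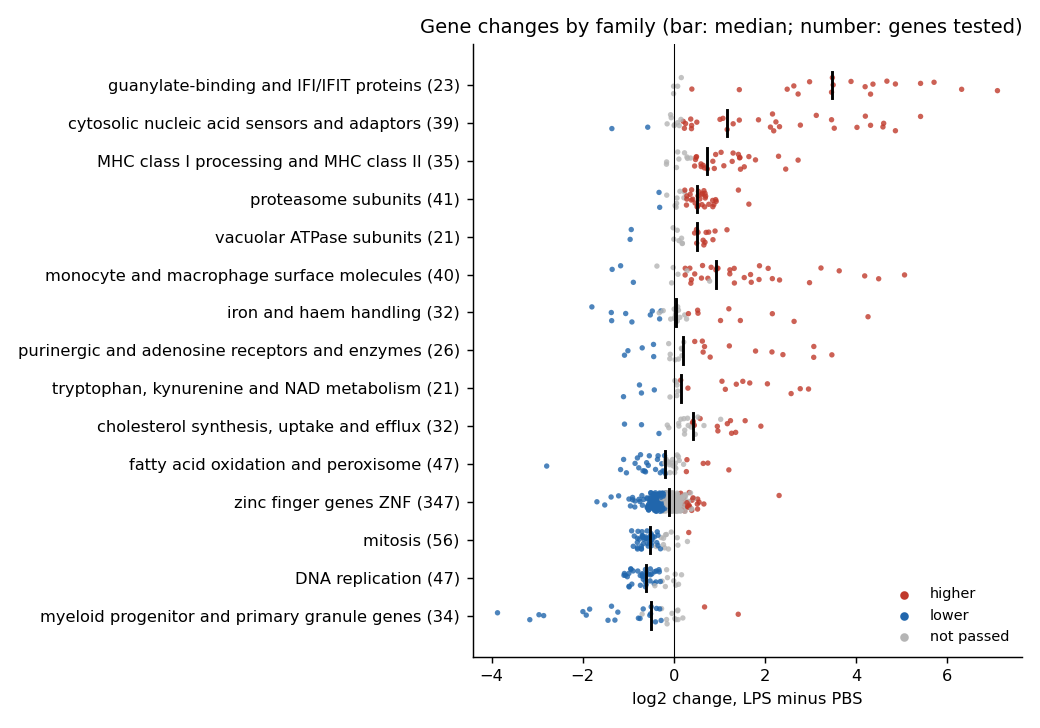
Log2 change with LPS of each tested gene (points) in 15 families, red for genes that rose, blue for those that fell and grey for those that did not pass, with a bar at the family's median. The medians run from 3.48 for the guanylate-binding and IFI/IFIT proteins to -0.61 for DNA replication, and metabolic families hold rises and falls side by side.

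Genes induced by interferon rose by more than the families above. Of 23 guanylate-binding, IFI and IFIT genes, 19 rose and none fell, with a median log2 change of 3.48, from 2.31 on chip 2 to 4.57 on chip 3. IFI44L, an interferon-induced protein, measured 28.5, 34.7 and 43.9 with PBS and 2637, 8839.9 and 17064 with LPS (6.32 ± 0.39). MX1, a GTPase that blocks viral ribonucleoproteins, measured 286, 352 and 771 and 10992, 25801 and 41435 (5.57 ± 0.30). IFIT1, which binds foreign 5′ ends of RNA, rose by 5.42 ± 0.31. MX1 is counted in the list of restriction factors below and IFIT1 in that of nucleic acid sensors. A gene can be in several lists, so their counts are not independent.

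Sensors of nucleic acids rose as well, with 29 rises and 2 falls among 39 (median 1.17). TLR8, an endosomal receptor for single-stranded RNA, did not exceed background on any PBS array and rose at least 21.3-fold, and the related TLR7 rose by 2.19 ± 0.09. IFIH1, which senses long double-stranded RNA, rose by 3.13 ± 0.25. STING1, the adaptor of the DNA-sensing pathway, was an exception. It measured 7751, 10322 and 13141 with PBS and 2247, 4477 and 6953 with LPS, without overlap (-1.36 ± 0.23, -1.95 to -0.78 within the chips), while CGAS, the enzyme upstream of it, rose by 0.50 ± 0.16, which did not pass without chip 3.

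Restriction factors, which block steps of viral replication, had 26 rises and 1 fall among 36. ISG20, an exonuclease, rose by 5.03 ± 0.54, but its change within a chip ran from 2.97 to 6.93. The PARP family of ADP-ribosyltransferases divided. PARP12, PARP14 and PARP9, the interferon-induced members, rose by 2.95 ± 0.23, 2.74 ± 0.25 and 2.49 ± 0.21, and PARP10 rose too (2.05 ± 0.30). The DNA repair enzymes PARP1 and PARP2 and 4 other members fell, by 0.22 and 0.46 in the case of these 2, and the fall of PARP1 did not pass without chip 3.

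Promoters of these gene groups were searched for short motifs on both strands, from 250 bases before to 50 bases after the start site, in RefSeq sequence of build GRCh38.p14. Of the 13386 genes tested, 10892 matched a promoter. The core of the interferon-stimulated response element, GAAANNGAA, was found in 6.69% of all these promoters. It was found in 16.4% of the 578 genes that rose at least 2-fold, in 3.37% of the 297 that fell as much, and in 12 of 19 guanylate-binding, IFI and IFIT genes. A kappaB core, GGGANTTTC, was in 1.28% of all promoters, 5.02% of the 2-fold rises and 1 of the 2-fold falls. Motifs of cell cycle genes were frequent in the lists of that name. An E2F site, TTTNGCGC, was in 2.83% of all promoters and in 14 of 40 replication genes. The CHR element of mitotic genes, TTTGAA, was in 11% of all and 35 of 48 mitosis genes, but in 8.75% of the 2-fold falls. Matches of the ISRE core and the CHR element shared bases in 15 promoters, those of the ISRE core and the E2F site in 8, and each other pair in at most 3. These shares are descriptions, and a match is not shown to be bound.

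**Figure D4:**
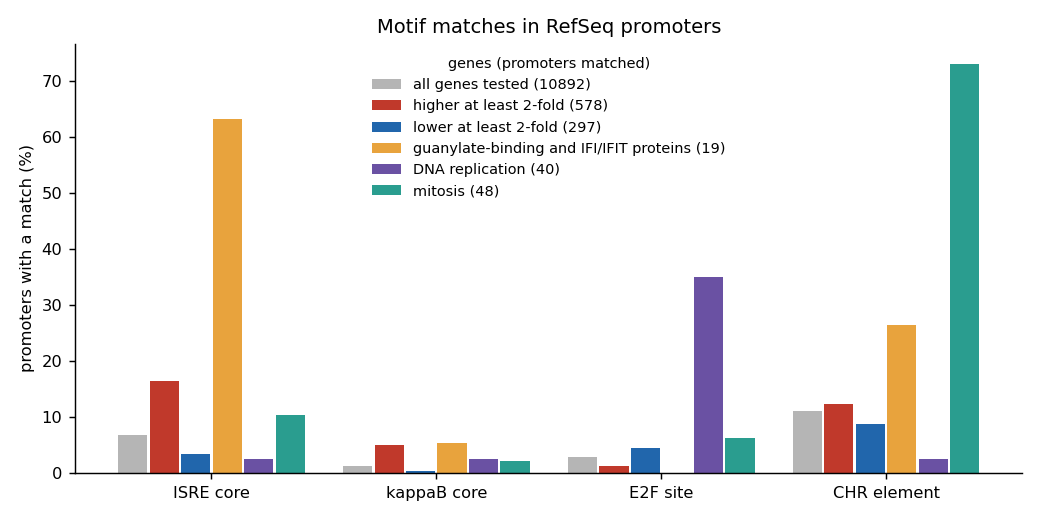
Share of promoters with at least 1 match (vertical axis, percent, starting at 0) for 4 motifs and 6 sets of genes, with the number of promoters in each set in the key. The ISRE core stands out in the guanylate-binding and IFI/IFIT genes at 63.2%, the E2F site in replication genes at 35% and the CHR element in mitosis genes at 72.9%.

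For each of these motifs, the promoters of 2 genes that hold it and rank high by size of change are shown to set the sequence beside the response. Not every gene was eligible, so these need not be the 2 with the largest change. The choice was among the rises of all lists other than the cytokines for the ISRE and kappaB cores, and among the falls of the replication and mitosis lists for the others. Sequences are RefSeq's, 5′ to 3′ on the strand of the gene, with matches of the 1 motif each was chosen for in capitals and positions counted from the start site as 1. IFI27 (7.10 ± 0.47, chr14:94110486-94110785, + strand) holds ISRE cores that begin at -107 on the opposite strand and -95 on its own. IFI44L (6.32 ± 0.39, chr1:78620198-78620497, + strand) holds them at -164 and -73.
IFI27: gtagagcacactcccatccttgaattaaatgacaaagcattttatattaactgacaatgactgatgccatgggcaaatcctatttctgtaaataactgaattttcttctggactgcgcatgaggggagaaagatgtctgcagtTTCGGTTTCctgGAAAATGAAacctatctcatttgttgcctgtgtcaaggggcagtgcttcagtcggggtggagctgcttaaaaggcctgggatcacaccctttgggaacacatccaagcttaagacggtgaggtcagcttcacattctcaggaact
IFI44L: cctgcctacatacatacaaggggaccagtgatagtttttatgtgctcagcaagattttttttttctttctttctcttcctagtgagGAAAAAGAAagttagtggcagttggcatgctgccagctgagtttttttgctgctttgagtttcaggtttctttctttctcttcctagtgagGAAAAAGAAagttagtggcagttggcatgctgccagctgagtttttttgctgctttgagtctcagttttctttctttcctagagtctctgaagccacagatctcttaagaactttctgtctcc
GBP4, a guanylate-binding protein (3.50 ± 0.51, chr1:89198893-89199192, - strand), and IFIH1 (chr2:162318635-162318934, - strand) hold a kappaB core at -44 and -75. In these and in CDT1, KIF15 and SMC2 the match is on the opposite strand, so the capitals show its reverse complement. GBP4 and IFIH1 also hold the ISRE core and KIF15 the E2F site, left in lower case.
GBP4: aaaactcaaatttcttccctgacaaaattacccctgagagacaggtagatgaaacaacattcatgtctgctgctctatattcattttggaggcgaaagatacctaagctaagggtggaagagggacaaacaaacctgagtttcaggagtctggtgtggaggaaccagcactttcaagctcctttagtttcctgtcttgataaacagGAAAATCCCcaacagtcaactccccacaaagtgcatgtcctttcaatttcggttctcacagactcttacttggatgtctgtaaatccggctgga
IFIH1: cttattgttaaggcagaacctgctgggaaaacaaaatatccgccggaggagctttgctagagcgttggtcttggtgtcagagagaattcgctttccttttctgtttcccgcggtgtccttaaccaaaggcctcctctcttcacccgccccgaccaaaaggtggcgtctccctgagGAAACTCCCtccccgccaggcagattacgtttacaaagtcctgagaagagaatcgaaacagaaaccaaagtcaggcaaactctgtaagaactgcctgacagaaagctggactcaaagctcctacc
RFC5 (chr12:118016453-118016752, + strand) holds an E2F site at 10, after its start, and CDT1, which licenses replication origins (-1.02 ± 0.13, chr16:88803539-88803838, + strand), one at -213.
RFC5: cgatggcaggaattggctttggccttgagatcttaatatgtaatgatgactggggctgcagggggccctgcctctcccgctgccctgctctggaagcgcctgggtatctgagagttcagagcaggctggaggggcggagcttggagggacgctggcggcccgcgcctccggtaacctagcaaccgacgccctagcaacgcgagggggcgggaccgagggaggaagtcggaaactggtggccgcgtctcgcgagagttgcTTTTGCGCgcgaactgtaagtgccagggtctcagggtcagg
CDT1: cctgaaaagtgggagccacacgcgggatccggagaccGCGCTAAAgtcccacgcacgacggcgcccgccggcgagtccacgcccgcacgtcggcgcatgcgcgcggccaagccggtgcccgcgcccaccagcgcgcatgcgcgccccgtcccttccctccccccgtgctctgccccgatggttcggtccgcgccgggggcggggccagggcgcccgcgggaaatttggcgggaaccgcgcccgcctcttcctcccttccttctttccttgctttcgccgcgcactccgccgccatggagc
KIF15 (chr3:44761544-44761843, + strand) and SMC2 (chr9:104094059-104094358, + strand) hold a CHR element at -35 and -3, close to the start.
KIF15: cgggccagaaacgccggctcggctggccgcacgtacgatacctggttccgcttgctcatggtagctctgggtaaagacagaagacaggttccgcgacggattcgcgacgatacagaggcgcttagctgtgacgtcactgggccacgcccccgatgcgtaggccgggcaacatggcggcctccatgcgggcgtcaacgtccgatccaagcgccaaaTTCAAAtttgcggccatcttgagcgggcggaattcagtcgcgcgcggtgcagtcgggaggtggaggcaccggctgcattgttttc
SMC2: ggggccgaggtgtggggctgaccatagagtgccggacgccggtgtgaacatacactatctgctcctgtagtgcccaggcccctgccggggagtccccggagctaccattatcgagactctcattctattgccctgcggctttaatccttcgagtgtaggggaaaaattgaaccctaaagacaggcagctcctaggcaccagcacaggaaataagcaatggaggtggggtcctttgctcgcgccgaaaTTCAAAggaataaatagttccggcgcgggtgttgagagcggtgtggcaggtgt

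Protein breakdown in the proteasome and the endosome was represented by many small rises. Of 41 proteasome genes, 31 rose and 2 fell, with a median of 0.52 that was positive on every chip (0.36 to 0.58). PSMA1, a subunit of the core ring, measured 4949.9, 5449 and 6155 with PBS and 8722, 10199 and 13125 with LPS, without overlap (0.93 ± 0.09, 0.83 to 1.07 within the chips). The largest change was in PSMB9, a subunit induced by interferon. PSMB9, which replaces a constitutive catalytic subunit, changed by 1.65 ± 0.42, with overlapping groups and 0.21 to 2.92 within the chips. The constitutive catalytic subunit PSMB5 also rose, by 0.66 ± 0.11, and PSME2, part of the activator PA28, by 1.42 ± 0.19.

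Antigen presentation followed. Of 35 genes of MHC class I processing and MHC class II, a list that shares 5 members with the proteasome list, 26 rose and none fell (median 0.74). TAP1, a subunit of the peptide transporter into the endoplasmic reticulum, measured 2040.4, 2240.4 and 2491 with PBS and 5157, 14121 and 22863 with LPS (2.30 ± 0.29). HLA-DRA, a class II chain, measured 178, 457 and 619 and 1121, 2420.1 and 5236 (2.46 ± 0.37), and IFI30, the thiol reductase that opens antigens in the lysosome, rose by 2.73 ± 0.44. Probes of MHC genes can bind the transcripts of close relatives, so single HLA values are uncertain.

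The vacuolar ATPase is the proton pump that acidifies endosomes and lysosomes. It had 12 rises and 2 falls among 21 tested genes (57.1% and 9.52%, beside 21.8% and 22.7% of all genes). Its median change was 0.50. ATP6V0A1, of its membrane sector, measured 1019, 1094 and 1956 with PBS and 2244, 3131 and 3888 with LPS (1.17 ± 0.19), and the accessory subunit ATP6AP1 rose by 0.86 ± 0.06. The falls were in ATP6V0E2 and ATP6V1C2, alternative forms of subunits whose main forms are ATP6V0E1, which rose by 0.53 ± 0.11, and ATP6V1C1, which did not pass (0.17 ± 0.10) but did without PBS array 8 (0.24, limma's adjusted p = 0.0349). The fall of ATP6V1C2 did not pass with array weights. Lysosomal cathepsins rose in part, with 10 rises and 3 falls among 21 cathepsins and cystatins (47.6% and 14.3%). CTSH measured 1813, 2322 and 2584 with PBS and 10379.5, 15011 and 20694 with LPS (2.64 ± 0.13), CTSL rose by 1.89 ± 0.12, and its close relative CTSV fell by 1.40.

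Autophagy genes did not move one way, with 12 rises and 10 falls among 41 (29.3% and 24.4%), shares near the 21.8% and 22.7% of all genes. Those that rose included the p53 target DRAM1 (3.32 ± 0.10), the cargo receptor SQSTM1 (2.02 ± 0.19) and MAP1LC3A, a membrane tag of the autophagosome (2.26 ± 0.28). ATG5, which helps to attach that tag, fell (-0.46 ± 0.10), while of the 16 genes with an ATG symbol 3 rose and 2 fell (median 0.06).

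**Figure D5:**
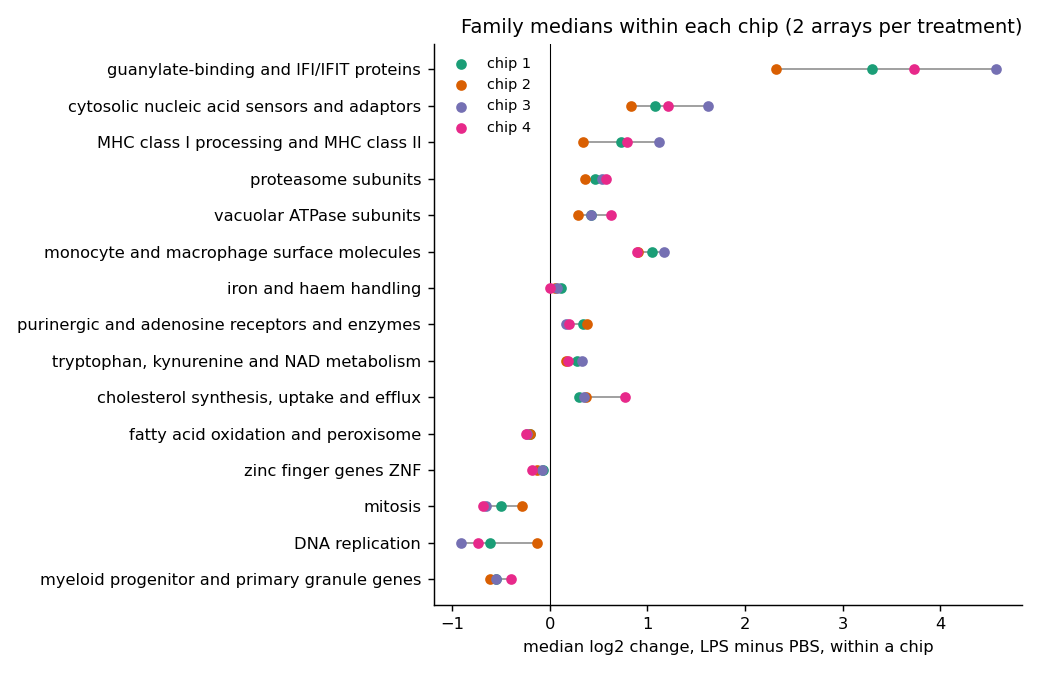
Median log2 change of each of 15 families computed within each chip from 2 arrays per treatment (points coloured by chip, joined by a line). The guanylate-binding and IFI/IFIT genes run from 2.31 on chip 2 to 4.57 on chip 3 and the replication genes from -0.12 to -0.91 on the same chips, while fatty acid oxidation stays between -0.25 and -0.20.

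Enzymes that burn fatty acids were lower. Of 47 genes of fatty acid oxidation and the peroxisome, 23 fell and 5 rose, with a median of -0.19 that varied little between chips (-0.25 to -0.20). The falls made up 48.9% and the rises 10.6%, beside 22.7% and 21.8% of all genes. CAT, the peroxisomal catalase that breaks down hydrogen peroxide, measured 1629.8, 2039 and 3302 with PBS and 147, 274 and 418 with LPS (-2.79 ± 0.16, adjusted p = 3.36e-16). ACADM, which oxidises medium-chain fatty acids in mitochondria, measured 4583, 5807 and 7185 and 1909, 2527 and 3079 (-1.17 ± 0.10). CPT1A, the gate for fatty acids into mitochondria, fell by 1.10 in 2 of its 3 probes, and HADH, a later step of the same pathway, by 1.04. The summed intensity of the list did not overlap between groups, at 50477 to 53791 with PBS and 38207 to 41205 with LPS. PPARD, a nuclear receptor for fatty acids, was the largest rise (1.21 ± 0.15).

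Glycolysis and the pentose phosphate pathway leaned upwards, with 16 rises and 6 falls among 31. The shares were 51.6% and 19.4%, beside 21.8% and 22.7% of all genes. After quantile normalization 12 rose and 7 fell, after scaling to a common median 13 and 6, and with the chip as a block 18 and 6. The glucose transporter SLC2A3 measured 339.7, 380.0 and 418 with PBS and 1629, 2068 and 2699 with LPS (2.29 ± 0.09), and SLC2A6, a related hexose transporter of the lysosome, rose by 3.52 ± 0.17. PKM, or pyruvate kinase, rose by 1.54 ± 0.12, while GAPDH and LDHA did not pass (0.10 ± 0.10 and 0.07 ± 0.12). In the TCA cycle list, 5 rose and 10 fell among 35 (14.3% and 28.6%, beside 21.8% and 22.7% of all genes). With array weights 9 rose and 9 fell, and after scaling to a common median 2 and 14. SLC25A10, the mitochondrial carrier of succinate and malate, measured 703, 1081 and 1149.5 and 127, 207 and 300.5 (-2.02 ± 0.15), and ME1, which makes NADPH from malate in the cytosol, measured 213, 319 and 506 and 1483, 1792 and 2262 (2.29 ± 0.15).

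Cholesterol genes rose in part, with 13 rises and 3 falls among 32 (40.6% and 9.38%, beside 21.8% and 22.7% of all genes). Synthesis and efflux both took part, as LSS, which closes the sterol ring, rose by 1.36 ± 0.44 and the efflux pump ABCA1 by 1.91 ± 0.51, each with overlapping groups. LSS rose in 2 of its 3 probes. The rise of LSS did not pass without chip 4 and that of ABCA1 with array weights. CH25H, which makes 25-hydroxycholesterol, exceeded background on none of the PBS arrays and 4 of the 8 LPS arrays, a rise of at least 2.09-fold. The count of rises moved to 24 with arrays weighted by their quality and to 21 with the replicate number as a block.

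Genes of lipid mediators changed in both directions. The list had 10 rises and 6 falls among 29 (34.5% and 20.7%, beside 21.8% and 22.7% of all genes). PLA2G7, which degrades platelet-activating factor, measured 13.7, 131 and 151 with PBS and 887, 3458 and 7343 with LPS (4.33 ± 0.55). On the leukotriene branch, ALOX5AP, the partner that hands arachidonic acid to 5-lipoxygenase, rose by 2.12 ± 0.15. Both enzymes that draw on the product fell. LTA4H, which makes leukotriene B4, measured 3507, 4114 and 4852 and 1192, 1529.9 and 1902 (-1.42 ± 0.14), and LTC4S, which makes leukotriene C4, 349, 1153 and 1757 and 54.3, 139 and 242 (-2.71 ± 0.26). PTGS2, the inducible cyclooxygenase, did not pass (0.82 ± 0.35, adjusted p = 0.0593), with changes that ran from -0.72 to 2.04 within the chips, and TBXAS1, the thromboxane synthase, rose by 2.02 ± 0.12.

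The kynurenine route from tryptophan towards NAD had several rises, with 11 rises and 4 falls among 21 in the list. The shares were 52.4% and 19%, beside 21.8% and 22.7% of all genes. IDO1, the first enzyme, did not exceed background on any PBS array and measured 94.0, 792 and 2525 with LPS, a rise of at least 5.92-fold. Its change ran from 1.35 to 4.57 within the chips. TDO2, which catalyses the same step, was at least 2.88-fold higher, and the later enzymes KMO and KYNU rose by 1.67 ± 0.16 and 1.06 ± 0.08. QPRT, which forms the first pyridine nucleotide of the route, fell by 0.43, which did not pass without chip 1 or chip 3. NAMPT, which recycles nicotinamide into NAD, measured 136, 185 and 288 and 1041, 1336 and 1892 (2.57 ± 0.14), and NAPRT, which starts from nicotinic acid, fell by 0.71. WARS1, the tRNA synthetase that charges tryptophan, rose by 2.77 ± 0.28, beside 12 rises among 34 synthetases (35.3%).

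Of the arginine, polyamine and tetrahydrobiopterin genes, 8 of 23 rose, 3 fell and 12 did not pass (34.8% and 13%, beside 21.8% and 22.7% of all genes). After quantile normalization 7 rose and 7 fell. GCH1, the first enzyme of tetrahydrobiopterin synthesis, measured 46.5, 67.4 and 93.6 with PBS and 574, 753 and 1064 with LPS (2.81 ± 0.11, in all 3 of its probes). SAT1, which marks polyamines for export or breakdown, rose by 2.80 ± 0.22, and SLC7A2, an arginine transporter, by 1.88 ± 0.18.

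Of 32 iron and haem genes, 9 rose and 9 fell, 28.1% each way beside 21.8% and 22.7% of all genes, so the count does not set the family apart. HMOX1, which degrades haem, stayed below background with PBS (20.2, 27.9 and 44.5) and measured 1286, 1464 and 1702 with LPS, at least 16.3-fold higher. SLC11A2, the importer DMT1, measured 369, 408 and 452 and 2340.4, 2683 and 3415 (2.64 ± 0.09), and SLC40A1, the exporter ferroportin, 242, 263 and 324 and 29.5, 44.7 and 54.9 (-1.80 ± 0.07). With LPS the latter was above background on 4 of 8 arrays. CD163, the receptor that takes up haemoglobin, was at least 3.34-fold higher. Among the enzymes that build haem, the first, ALAS1, rose by 1.46 ± 0.09, the second, ALAD, fell by 1.36, and the later enzymes PPOX and UROD also fell, by 0.92 and 0.52.

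Oxidant defence was also divided, with 17 rises and 14 falls among 45 (37.8% and 31.1%, beside 21.8% and 22.7% of all genes). Among 23 housekeeping genes the shares were alike, at 39.1% and 26.1%, so the count does not set the family apart. After quantile normalization 14 rose and 18 fell, and after scaling to a common median 15 and 15. SOD2, the mitochondrial superoxide dismutase, measured 693, 1223 and 1624 with PBS and 24236, 34231 and 47179 with LPS (4.81 ± 0.16), which made it the largest rise of the list as CAT was the largest fall. The cystine importer SLC7A11 was at least 2.82-fold higher, and NQO1 and TXNRD1, like it targets of the factor NRF2, rose by 1.41 ± 0.37 and 0.90 ± 0.19. Glutathione transferases of the mu class fell, GSTM1 by 0.87 and GSTM2 by 0.88, although probes of these near-identical genes may share transcripts. TXNIP, which binds thioredoxin, fell by 1.19. Among metallothioneins and zinc transporters, MT2A, which binds zinc, rose by 3.53 ± 0.29 and MTF1, the zinc-sensing factor, by 2.06 ± 0.14.

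Transcripts for receptors and enzymes of signalling by nucleotides outside the cell changed in both directions. In the purinergic list, 12 rose and 5 fell among 26 (46.2% and 19.2%, beside 21.8% and 22.7% of all genes). ADORA2A, a receptor for adenosine, measured 36.6, 45.8 and 59.0 with PBS and 919, 1009 and 1115 with LPS (3.47 ± 0.12), and hardly varied between chips (3.32 to 3.56). P2RX7, the ATP-gated channel that triggers inflammasomes, measured 186, 209 and 271 and 1979.5, 2278 and 2312 (3.07 ± 0.13). ADA, which removes adenosine, rose by 3.07 ± 0.12, and the ATP receptors P2RX1 and P2RY2 fell by 1.08 and 1.01.

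Receptors of other cytokines rose more often than they fell, with 27 rises and 2 falls among 53 interleukin and TNF receptor genes (50.9% and 3.77%). IL7R, the receptor for interleukin-7, was at least 10.3-fold higher with LPS, and both chains of the interleukin-18 receptor rose, IL18R1 by 3.30 ± 0.14 and IL18RAP by 3.22 ± 0.16. Brakes on signalling differed between families. RGS1, which shortens signals of G protein-coupled receptors, rose by 4.64 ± 0.25. The RGS list had 3 rises and 3 falls among 16, 18.75% each way, near the 21.8% and 22.7% of all genes. Of 22 dual-specificity phosphatases, 10 rose and 1 fell (45.5% and 4.55%), and DUSP1, which switches off MAP kinases, rose by 2.41 ± 0.26.

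Genes that guide cell movement also rose in part, with 11 rises and 1 fall among 24 semaphorins, plexins and neuropilins. The shares were 45.8% and 4.17%, beside 21.8% and 22.7% of all genes, and 12 did not pass. NRP1, a coreceptor of semaphorins and VEGF, measured 55.1, 90.8 and 112 with PBS and 1179.8, 1267 and 1478 with LPS (3.28 ± 0.15).

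Coagulation and complement genes held more rises than falls. PLAUR, the urokinase receptor, measured 398, 539.6 and 655 and 4362, 4697 and 4918 (3.0 ± 0.09, in all 3 of its probes), while F13A1, the subunit that cross-links fibrin, fell by 2.49. The coagulation list had 16 rises and 5 falls among 33 (48.5% and 15.2%, beside 21.8% and 22.7% of all genes). The complement list had 10 rises and 4 falls among 24 (41.7% and 16.7%), and 10 did not pass. Both anaphylatoxin receptors rose, C5AR1 by 2.91 ± 0.16 and C3AR1 at least 5.08-fold, and C5 itself, the source of one of the anaphylatoxins, fell from 1767, 2114 and 2883 to 208, 507 and 869.6 (-2.22 ± 0.26).

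In the inflammasome list 10 rose and 4 fell among 30 (33.3% and 13.3%, beside 21.8% and 22.7% of all genes). CASP1 and CASP5, proteases of the canonical and the LPS-sensing inflammasome, rose, by 2.14 ± 0.18 and at least 7.26-fold. The sensor NLRP3 did not pass in the brightest of its 3 probes (-0.20 ± 0.09, adjusted p = 0.0787), and 1 of the others differed in its call. The brightest probe passed as a fall after quantile normalization. Apoptosis regulators had 19 rises and 11 falls among 45 (42.2% and 24.4%), and 14 and 12 after scaling to a common median. CFLAR, an inhibitor of death receptor signals, rose by 1.59 ± 0.16, and BCL2 fell by 1.45.

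In some families falls outnumbered rises, mostly by small amounts. Of 347 zinc finger genes named ZNF, 131 fell, 25 rose and 191 did not pass, with a median of -0.10 beside 0.04 over all genes. After scaling to a common median 148 fell and 15 rose. The rises numbered 13 without chip 3, 15 without chip 1 and 39 when replicate number was a block. ZNF395 fell by 1.69, and ZNF366 was the largest rise (2.31 ± 0.14). Families grouped by the root of their symbols, picked here after the ranking was seen, gave 2 further cases of small families. Of 15 genes of intraflagellar transport, which build the cilium, 14 fell (median -0.39), among them IFT52 (-0.89 ± 0.07). Of 10 genes of coenzyme Q synthesis, 8 fell and 1 rose (median -0.38), with COQ8A the largest fall (-1.35 ± 0.07). KDM5B, a histone demethylase, measured 1993, 2258 and 2432 with PBS and 863, 938 and 957 with LPS (-1.22 ± 0.07).

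Genes of protein synthesis and respiration gave results that rested on PBS array 8. Of 72 cytosolic ribosomal protein genes, 20 fell and 5 rose (27.8% and 6.94%, beside 22.7% and 21.8% of all genes). Without that array 35 fell. RPL22 fell from 6373, 6867 and 7579 to 2284, 3129 and 3917 without overlap (-1.16 ± 0.11). Of 66 respiratory chain and ATP synthase genes, 9 fell (13.6%) with a median of 0.00, and without the array 22 fell with a median of -0.14. The mitochondrial ribosomal list went from 13 falls (17.3%) to 23. With all arrays, the share of falls in the respiratory chain and mitochondrial ribosomal lists lay below that of all genes. The medians of the respiratory chain and mitochondrial ribosomal lists changed sign when the arrays were scaled to a common median (-0.06 and -0.01), so no direction is given for them. ACTB, the beta-actin control, did not pass the test (0.12 ± 0.12). Other control genes did, as 9 of 23 housekeeping genes rose and 6 fell (39.1% and 26.1%), none by 2-fold. After quantile normalization 5 rose and 7 fell.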

How the data were processed

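The 32 arrays of the series, 8 in each of 4 groups, were read from the deposited table of linear intensities, which holds values below 0. BeadStudio 3.2 is named per the submitters' processing notes, and the background correction and normalization that made the deposited intensities are not given in the sources read for this work, and their effect on the values is unknown. A second table with 64 columns of values that match no label of a sample was not used, so alternatives planned on it were not run. Probes were named through the platform's annotation, in which 21826 of 24518 probes have 1 gene symbol and 2692 have none, and each gene was taken by its brightest tested probe, since probes of a gene can disagree.

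The values were analysed as log2(intensity + 50), and the 25% of probes that were dimmest on average were left out, leaving 18388. Means of the 4 groups were fitted over all 32 arrays with limma 3.58.1 in R 4.3.3, and the difference of LPS and PBS was tested with Benjamini-Hochberg adjustment over all tested probes at 0.05. The fit was first tested on simulated data. On each array a probe counted as above background at 3 SDs over the peak of the dim intensities, with the SD taken from the side left of that peak. No pair of arrays was identical, and the highest correlation between arrays was 0.998. The precision is limited by the number of arrays.

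Genes were named from among the 15 largest rises and the 15 largest falls with 1 sign on all 4 chips outside the cytokine list, the 3 largest changes of each list, and some fixed genes. Not all genes that this rule allows are named, and which to leave out was chosen after their values were seen. The gene lists and the genes were chosen with earlier results of these data known. Chosen after their values were seen were also LYZ, CEBPA, CCR2, CSF3R, BCL2, GFI1, MYB, FLT3, PRTN3, ANPEP, PLAC8, CDC25B, CDKN1B, CDK2, TLR7, IFIH1, STING1, CGAS, PARP10, PARP1, PARP2, GBP4, CDT1, PSMB5, ATP6AP1, ATP6V0E1, ATP6V1C1, ATG5, CPT1A, HADH, LDHA, ALOX5AP, LTA4H, TBXAS1, TDO2, KMO, KYNU, QPRT, NAPRT, SLC40A1, ALAS1, ALAD, PPOX, UROD, NQO1, TXNRD1, GSTM1, GSTM2, TXNIP, P2RX1, P2RY2, NLRP3, IFT52 and COQ8A. Alternatives varied the offset, the filter, the scaling, array weights, blocks, the arrays fitted and the chips.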

Additional observations from a re-analysis of the deposited data

Results flagged for a closer look

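Single arrays lay apart from the others of their group for 35 of the 466 groups of 8 values examined (gap over range above Dixon's 95% critical value). Chance gives such a gap in about 1 in 20 groups. Of these, 27 were at PBS array 8, the array with the lowest mean intensity. Its intensity was the lowest of the PBS arrays for ATP6V0E1 (3315, next 5616), BIK (355, next 674), CDC25B (458, next 627), CEBPA (6487, next 8321), FBP1 (741, next 897), FCER1G (1826, next 5288), GSTM1 (4782, next 6607), GSTM2 (4488, next 6444), IRX3 (11908, next 17226), LTC4S (349, next 942) and MT2A (652, next 1476). The same array was also lowest for MTF1 (369, next 586), NKD2 (1254, next 1612), NKG7 (214, next 462), PKM (844, next 1628), PLAC8 (4638, next 7582), PSMB5 (1471, next 2526), PSMB9 (429.7, next 906), PSME2 (2111, next 4304), QPRT (1949.6, next 3109.8), S100A8 (2374, next 4306) and UROD (1701, next 2445). Among the LPS arrays, a single array was lowest for ACTB (array 1, 28722, next 41673), FCER1G (array 1, 21086, next 22696), KDM5B (array 2, 863, next 911) and P2RX7 (array 3, 1979.5, next 2163). LPS array 2 was highest for CCR2 (120.1, next 78.7). The median log2 level of a list in an array stood apart in 8 cases. In LPS array 5 it was 8.61 for prostaglandin and leukotriene enzymes and receptors (highest, next 8.33). In LPS array 8 it was 11.15 for glycolysis and pentose phosphate pathway (lowest, next 11.32). In PBS array 8 it was 9.25 for G1 control and CDK inhibitors (highest, next 8.97), 9.49 for monocyte defining markers (lowest, next 10.26), 11.01 for respiratory chain and ATP synthase subunits (lowest, next 12.15), 13.43 for cytosolic ribosomal proteins (lowest, next 14.14) and 9.57 for mitochondrial ribosomal proteins (lowest, next 10.24). In PBS array 1 it was 6.83 for coagulation, fibrinolysis and their inhibitors (lowest, next 6.94). The counts of changed genes that moved without PBS array 8 are given with the lists of ribosomal and respiratory chain genes.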

How the results depend on the processing

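Of 7705 probes called, 3848 were higher and 3857 lower. Within chip 1 alone, 956 were higher and 657 lower, and within chip 4 alone 955 and 837, where each fit has 2 arrays a treatment, while within chip 3 the falls of at least 2-fold numbered 735 against 436. The other settings kept each of these counts within 1.5 times. Of 168 genes named, 161 passed the test, and 8 of them lost their call in at least 1 setting other than a single chip. These were QPRT without chip 1 (-0.41) or chip 3 (-0.34), CDC25B (0.24), CGAS (0.45) and PARP1 (-0.15) without chip 3, PLAC8 without chip 3 (0.56), after quantile normalization (0.45) and with array weights (0.25), LSS without chip 4 (1.06), and ABCA1 (0.92) and ATP6V1C2 (-0.29) with array weights. PTGS2 was lower within chip 2 (-0.72) and passed as a rise without chip 2 (1.33), and the cause was not tested. NLRP3 passed as a fall after quantile normalization (-0.35), with a common median (-0.28), with array weights (-0.20) and without chip 3 (-0.30). With chip as a block, TLR4 (0.59, limma's adjusted p = 0.0348) and PTGS2 (0.82, 0.036) passed, PTGS2 also with array weights (1.17) and with the dimmest 50% left out (0.82, 0.0478), and ATP6V1C1 without chip 4 (0.28). Same-numbered arrays of the 2 groups had residual correlations of -0.11 to 0.37, and 2 of 8 correlated best with their own number, so the numbers were not taken to pair the arrays. With the replicate number as a block 4706 probes were higher and 4423 lower, and TLR4, PTGS2 and NLRP3 passed. Counts in some lists moved by over 1.5 times. Falls of cytosolic ribosomal genes numbered 40 after quantile normalization and 12 without chip 3, those of oxidant defence 8 without chip 3, and rises of apoptosis regulators 12 without it. Rises of metallothioneins and zinc transporters went from 11 to 6 with array weights. Signal near background limits dim genes, whose folds are understated by the offset.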
